A study of Sus scrofa with 8 samples.

Results

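The liver X receptors (LXRs) and a fixed set of their lipid targets were followed from young to old porcine liver. Of 10 genes chosen by symbol, 8 had a row among the 21607 mRNA identifiers of the study: the receptors NR1H2 (LXR-β, ENSSSCG00000003211) and NR1H3 (LXR-α, ENSSSCG00000013241), and the targets ABCA1 (ENSSSCG00000005423), ABCG1 (ENSSSCG00000027745), ABCG8 (ENSSSCG00000008453), MYLIP (ENSSSCG00000001063), LPCAT3 (ENSSSCG00000027205) and SCD (ENSSSCG00000010554). The identifiers paired with ABCG5 and SREBF1 had no row, and these 2 genes were not analysed here. All 8 genes had more than 3 recovered reads in every library and all 8 were tested.

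Livers were taken from 4 Yana sows, a native pig breed of China, of which 2 were young (aged 180 days) and had not yet given birth and 2 were old (aged 8 years) and had borne litters for years. The sows were not related in recent generations and went without food the night before slaughter. Each liver gave 1 rRNA-depleted RNA-seq library, so every age group holds 2 animals, and its values carry differences between individual sows as well as age. Ages were compared within 1 breed and 1 sex, and age cannot be told apart from past litters or anything else that separated both pairs of sows.

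LXRs are nuclear receptors that are activated by oxysterols, oxidised forms of cholesterol, and that bind DNA together with a retinoid X receptor (RXR). When cholesterol accumulates they switch on genes that export it from cells and into bile, that limit its uptake, and that make and desaturate fatty acids. LXR-α is best known from liver, intestine, fat and macrophages, whereas LXR-β is found in most tissues.

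The mRNA table held 37555696 and 37125093 recovered reads in young replicates 1 and 2 and 22482241 and 24866406 in old replicates 1 and 2. Levels are given as CPM, reads scaled to a library total that is not stated. CPM of all listed mRNAs summed to 408898 and 428910 in young replicates 1 and 2. In old replicates 1 and 2 they summed to 365330 and 346173, so the libraries were not scaled to a common mRNA total. CPM contain no gene length, so levels of different genes were not compared per length. Counting error alone is covered by the intervals. ALB, the gene of serum albumin, a defining product of hepatocytes, ranged from 16534 CPM (old replicate 1) to 35205 CPM (young replicate 2). Old replicate 1 stood apart from the other livers in its interferon-stimulated genes, and values without it are given where a result rests on it.

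Among the receptors, NR1H2 was higher in both old livers and NR1H3 was not. NR1H2 was at 4.30 CPM (395 reads) in young replicate 1 and at 4.56 CPM (395 reads) in young replicate 2. In the old livers it was at 15.6 CPM (961 reads) and 14.9 CPM (1070 reads). The old libraries therefore lay close together and far above both young ones, the lower of them at 3.26 times the higher young value. Group means were 4.43 ± 0.185 CPM (SD, n = 2) and 15.3 ± 0.509 CPM (SD, n = 2), a ratio of 3.44.

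NR1H3 had 64.7 CPM (5939 reads) and 93.6 CPM (8098 reads) in young liver against 74.8 CPM (4601 reads) and 83.6 CPM (6004 reads) in old liver. Both old values lay between the young ones, and the group means were 79.1 ± 20.4 and 79.2 ± 6.24 CPM (SD, n = 2 each). The spread between the young sows was thus larger than the difference between the ages.

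**Figure D1:**
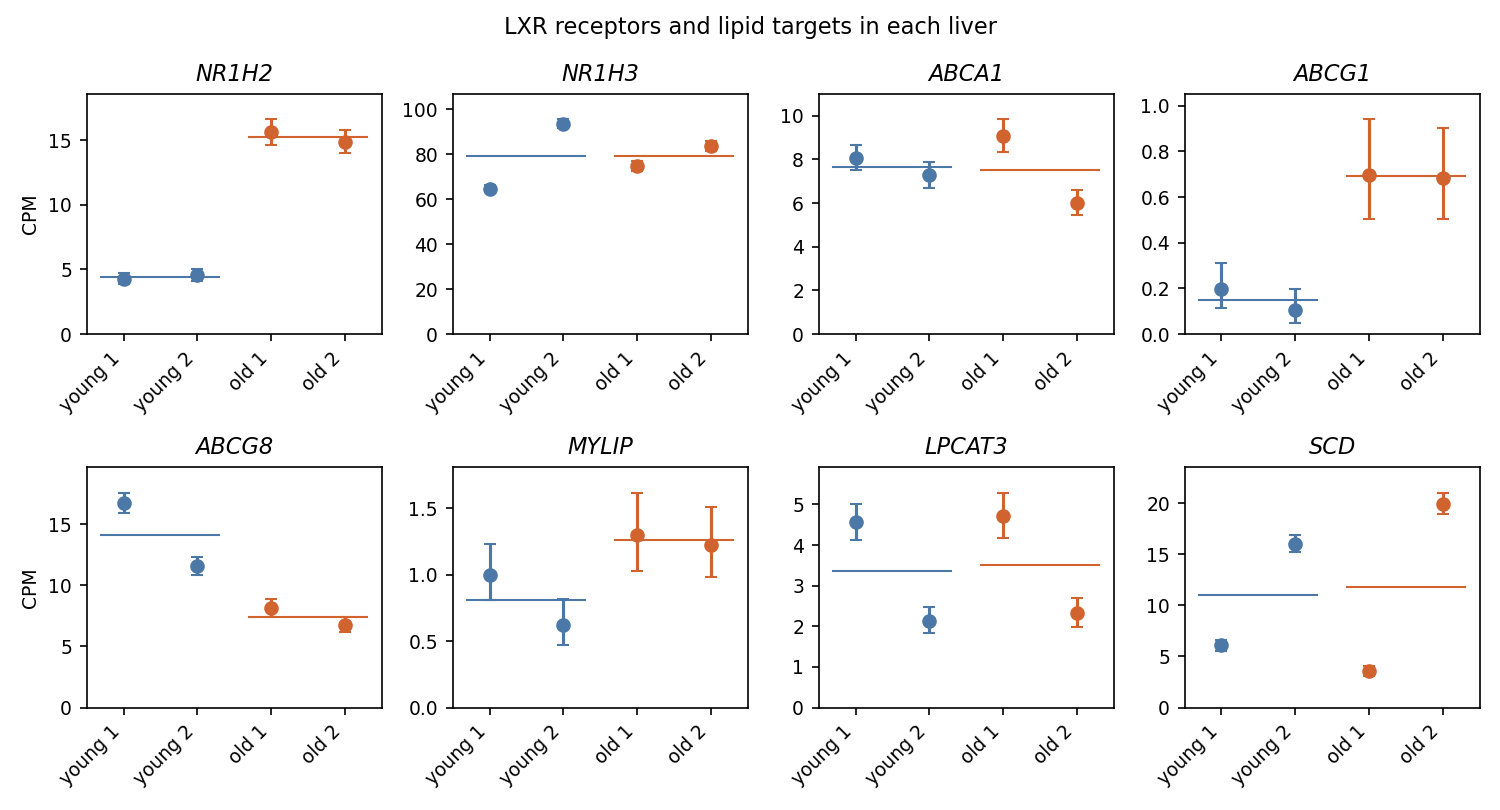
CPM of each of the 8 genes in the 4 liver libraries, on axes that start at 0 and differ between panels. Points are libraries with 95% exact Poisson intervals of their recovered reads, and horizontal lines are the means of the 2 young (blue) and 2 old (orange) livers. NR1H2, ABCG1 and MYLIP lie higher in both old livers, ABCG8 lies lower, and the other 4 genes overlap between the ages.

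For the test, log2(CPM + 1) was fitted with limma over the 16898 mRNAs above 0 in at least 2 libraries, and a call needed an adjusted p-value under 0.05 together with a log2 fold change beyond 1 in either direction. This was reached by 0% of all mRNAs tested and by 0 of the 8 genes, and the smallest adjusted p-value of any mRNA was 0.213. Of the 8 genes, 3 had an unadjusted p-value under 0.05, against 15.7% of all mRNAs: NR1H2 and ABCG1 were higher in old liver (6.78% of all mRNAs) and ABCG8 was lower (8.93%). For NR1H2 limma gave 1.58 ± 0.11 (log2 fold change ± SE, adjusted p = 0.213), and the value lay between 1.55 and 1.62 with any 1 library left out.

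Whether NR1H2 passed depended on the test applied to the recovered reads. The exact test of edgeR with common and tagwise dispersions, which called 2.36% of mRNAs (2.04% higher and 0.32% lower in old liver), gave a log2 fold change of 1.98 and an adjusted p-value of 0.0825. With trended dispersions the same exact test called 3.16% of mRNAs (2.7% higher, 0.456% lower) and gave NR1H2 an adjusted p-value of 0.0126. DESeq2 called 5.21% of mRNAs (4.04% higher, 1.17% lower), and its adjusted p-value for NR1H2 was 1.34e-05 at a log2 fold change of 1.96 (standard error 0.37). The quasi-likelihood test of edgeR called 0% of mRNAs and left NR1H2 at an adjusted p-value of 0.276, with 2474 mRNAs at an unadjusted p-value under 0.05. No other gene of the 8 was called by any of these tests.

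**Figure D2:**
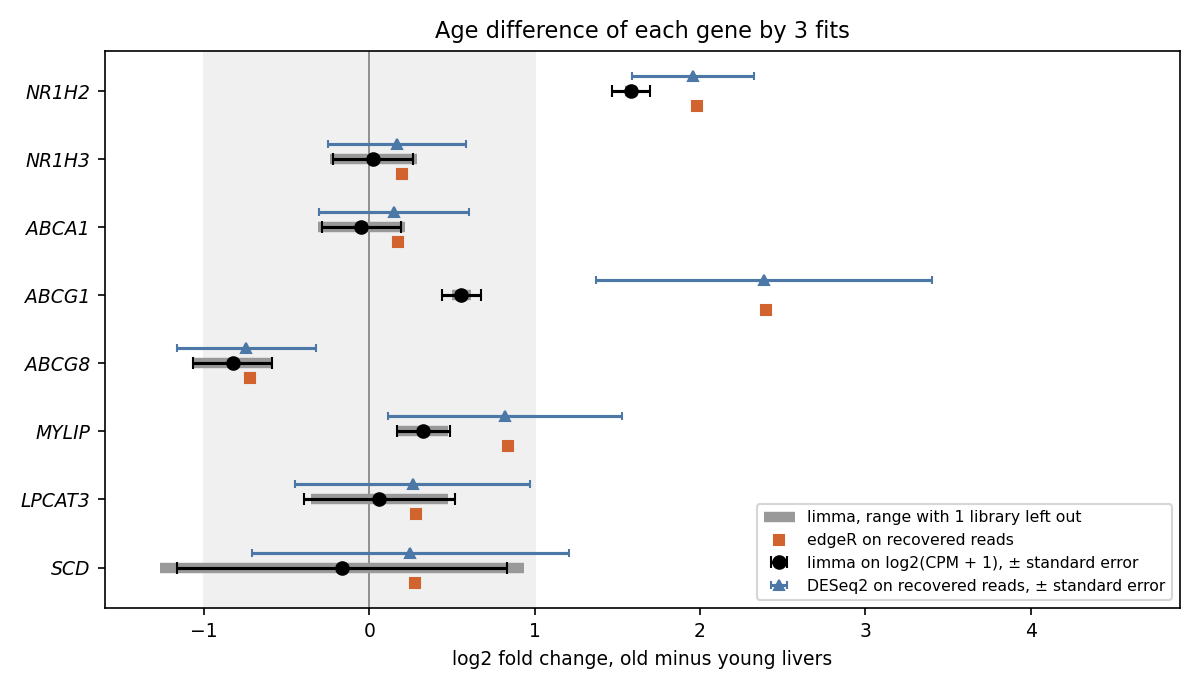
Log2 fold change of each gene, old minus young livers. Black points are limma on log2(CPM + 1) with standard errors, grey bars span the limma values with 1 library left out, orange squares are edgeR and blue triangles are DESeq2 with standard errors, both on recovered reads. The shaded band marks an absolute log2 fold change of 1 or less. NR1H2 lies beyond the band in each fit plotted, and ABCG1 lies beyond it in edgeR and DESeq2 but not in limma.

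The balance of both receptors was compared within each library, where a scaling factor cancels. NR1H2 gave 6.24% of the NR1H2 and NR1H3 reads in young replicate 1 (95% Wilson interval 5.67 to 6.86) and 4.65% in young replicate 2 (4.22 to 5.12). In old replicates 1 and 2 it gave 17.3% (16.3 to 18.3) and 15.1% (14.3 to 16.0). These are shares of reads with no account of the length of either gene, so they compare libraries and not the levels of both receptors. The NR1H2 share in each old liver was well above that in each young liver. On log2(CPM + 1) NR1H2 minus NR1H3 averaged -3.86 in young and -2.30 in old liver, a difference of 1.56. The two-sided exact permutation test gave p = 0.333, which is the smallest value that 2 against 2 libraries allow.

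**Figure D3:**
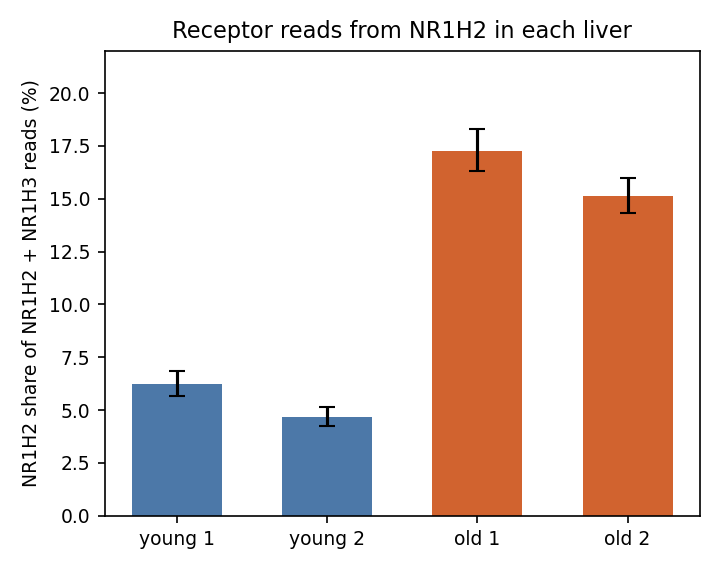
Share of NR1H2 in the summed reads of NR1H2 and NR1H3, in percent, for each liver. Bars are single libraries, blue for young and orange for old, with 95% Wilson intervals. The share lies between 4.65% and 6.24% in the young livers and between 15.1% and 17.3% in the old livers.

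Of the 8 genes, 4 were separated by age without overlap, as were 49.3% of all mRNAs tested. NR1H2, ABCG1 and MYLIP had both old livers above both young ones (24.4% of all mRNAs) and ABCG8 had both below (25% of all mRNAs). The share of separated genes was thus close to that of all mRNAs. The median log2 fold change was 0.04 over the 8 genes, 0.01 over the 6 targets, and -0.02 over all mRNAs tested. Without old replicate 1, SCD was also above and ABCA1 below the young livers, so that 6 of the 8 genes were separated, against 70.2% of all mRNAs.

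The cholesterol exporters ABCA1 and ABCG1 differed in their pattern. ABCA1, which passes cholesterol and phospholipid to lipid-poor apolipoprotein A-I, had 8.07 and 7.27 CPM in young liver against 9.05 and 5.99 CPM in old liver. The old livers lay on either side of the young ones. The log2 fold change of ABCA1 was -0.05 (SE 0.24, limma adjusted p = 0.949), and its sign turned to plus under TMM scaling and in the fits on reads.

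ABCG1, which exports cholesterol to mature high-density lipoprotein and is prominent in macrophages, was scarce in all livers. It had 0.196 CPM (18 reads) and 0.104 CPM (9 reads) in young liver against 0.699 CPM (43 reads) and 0.682 CPM (49 reads) in old liver. The 95% Poisson intervals of the old libraries (0.506 to 0.941 and 0.505 to 0.902 CPM) lay above those of the young libraries (0.116 to 0.310 and 0.0475 to 0.197 CPM). The ratio of the group means was 4.6. As the level was below 1 CPM, limma gave 0.56 ± 0.12 (log2 fold change ± SE, adjusted p = 0.239) on log2(CPM + 1) and 1.69 with a pseudocount of 0.1, and the exact test of edgeR gave 2.40 (adjusted p = 0.574).

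ABCG8, which forms with ABCG5 the pump that moves sterols from hepatocytes into bile, was lower in both old livers. It had 16.7 CPM (1535 reads) and 11.6 CPM (1002 reads) in young liver against 8.11 CPM (499 reads) and 6.78 CPM (487 reads) in old liver. The mean of the young livers was 1.90 times that of the old livers. The log2 fold change was -0.83 (SE 0.24, limma adjusted p = 0.285), and with 1 library left out it lay between -1.07 and -0.58. Of 15 hepatocyte markers with a row 5 were lower and 0 higher in both old livers (25% and 24.4% of all mRNAs), and 10 overlapped. Their summed CPM was 52033 and 59001 in the young and 35884 and 42849 in the old livers, and without ALB, the gene with the highest level, it was 22565 and 23796 against 19350 and 18871. The summed CPM of all listed mRNAs was lower in both old livers too, at 365330 and 346173 against 408898 and 428910 in the young. With TMM and upper quartile scaling the log2 fold change of ABCG8 was -0.65 and -0.71. The exact test of edgeR gave -0.72 (adjusted p = 0.871). The part of the hepatocyte markers in the ABCG8 difference was not tested, nor was that of these totals beyond these fits. In bulk tissue fewer cells of a type and less RNA per cell cannot be told apart.

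MYLIP, also called IDOL, is a ubiquitin ligase by which LXRs limit cholesterol uptake. It had 1.0 and 0.624 CPM (92 and 54 reads) in young liver against 1.3 and 1.23 CPM (80 and 88 reads) in old liver. The groups did not overlap, but the lower old value was only 1.22 times the higher young value, and their Poisson intervals overlapped (0.983 to 1.51 against 0.807 to 1.23 CPM). The log2 fold change was 0.33 (SE 0.16, limma adjusted p = 0.445) and 0.18 without young replicate 2.

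The lipid-modifying targets LPCAT3 and SCD differed between sows of the same age rather than between ages. LPCAT3, which inserts polyunsaturated fatty acids into membrane phospholipids, had 4.56 and 2.14 CPM in young liver against 4.71 and 2.33 CPM in old liver. In each age group, replicate 1 was 2.03 to 2.13 times replicate 2, while the ratio of the age means was 1.05. The log2 fold change was 0.06 (SE 0.46, limma adjusted p = 0.966).

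SCD, the desaturase that makes oleic from stearic acid, showed the widest spread between sows of 1 age on log2(CPM + 1), with SDs of 0.90 among the young and 1.55 among the old. It had 6.08 CPM (558 reads) and 16.0 CPM (1387 reads) in young liver against 3.58 CPM (220 reads) and 19.96 CPM (1434 reads) in old liver. Replicate 2 was 2.64 times replicate 1 among the young and 5.58 times among the old sows. The log2 fold change of -0.16 (SE 0.998, limma adjusted p = 0.958) was smaller than its error, and it was 0.93 without old replicate 1 and -1.26 without old replicate 2. Both libraries numbered 2 exceeded both numbered 1, as for SCD, in 11.9% of all mRNAs, and the reverse order of LPCAT3 was found in 16.5%. The replicate number names sows that share nothing in the labels. CYP7A1, the rate-limiting enzyme of bile acid synthesis, had the order of SCD (2.72 and 12.0 CPM in the young, 0.829 and 34.7 CPM in the old livers). It was named after its values had been seen.

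Profiles most like that of NR1H2 were sought among 10245 other mRNAs with a symbol, by the distance between centred log2(CPM + 1) values over the 4 libraries. The closest were SLC25A25, a mitochondrial ATP-Mg/phosphate carrier, at 1.35 and 1.39 CPM in the young and 6.39 and 6.47 CPM in the old livers (distance 0.0951), the lysosomal protease gene CTSZ at 10.3, 11.6, 31.6 and 33.4 CPM in the same order (0.148), and NTN1, the gene of the guidance factor netrin 1, at 0.054, 0.046, 2.47 and 2.42 CPM (0.148). The likeness of NTN1 holds on log2(CPM + 1), where its log2 fold change was 1.71, and not with a pseudocount of 0.1, where it was 4.09 against 1.76 for NR1H2. For NR1H3 the closest were CYB561 (0.0498), PDE3A (0.0588) and BCAS1 (0.0622), each below 1 CPM in every library, where log2(CPM + 1) moves little. With 4 libraries these are descriptions of likeness only.

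Around the receptors, 15 of 18 listed partners and coregulators had a row, of which 3 were higher in both old livers (24.4% of all mRNAs), 4 were lower (25%) and 0 were called by limma. Their median log2 fold change was -0.07. Values are given for young replicates 1 and 2 and then for old replicates 1 and 2. RXRB had 1.63 and 4.96 CPM in young liver against 3.28 and 3.77 CPM in old liver, so the groups overlapped. RXRG had 0.784 and 0.300 CPM in young liver against 0.910 and 3.01 CPM in old liver, where old replicate 2 held most of the difference. HDAC3, the deacetylase of the corepressor complex that silences LXR targets, had 5.75 and 4.92 CPM in young liver against 3.22 and 3.48 CPM in old liver (log2 fold change -0.54 ± 0.13 SE, limma adjusted p = 0.260). TBL1XR1, another subunit of that complex, was at 7.11 and 5.38 CPM and then at 5.12 and 4.36 CPM. The coactivator subunit MED1 had 3.85 and 4.8 CPM in young liver against 3.49 and 3.13 CPM in old liver. RXRA was not analysed here. RXRB, and CYP27A1 and APOA1 in the lists that follow, were named for their roles after their values had been seen.

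Genes that make or remove oxysterols, the ligands of LXRs, had a row in 9 of 11 cases, with 2 higher and 3 lower in both old livers (24.4% and 25% of all mRNAs), 0 called and a median log2 fold change of -0.01. CYP7B1 and CYP39A1 hydroxylate oxysterols on their way to bile acids. CYP39A1 had 16.6 and 10.5 CPM in young liver against 2.71 and 5.60 CPM in old liver (log2 fold change -1.52 ± 0.42 SE, limma adjusted p = 0.275). CYP7B1 was at 11.3 and 11.5 CPM and then at 2.60 and 7.20 CPM. Both were lowest in old replicate 1, where the hepatocyte marker sum was also lowest. Without old replicate 1 the log2 fold change was -1.11 for CYP39A1 and -0.60 for CYP7B1, which had -1.19 with all libraries. The part of hepatocytes in the values of both genes was not tested. CYP27A1, which makes 27-hydroxycholesterol, had 2.97 and 2.30 CPM in young liver against 2.63 and 2.42 CPM in old liver. LSS, a sterol synthesis enzyme, was at 3.44, 3.02 and 3.45 CPM in both young livers and old replicate 1 and at 12.0 CPM in old replicate 2 alone.

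Other known LXR targets had a row in 16 of 24 cases, of which 6 were higher and 3 lower in both old livers (24.4% and 25% of all mRNAs). None was called by limma, and the median log2 fold change was 0.24, against -0.02 for all mRNAs. APOE, which carries lipid out of macrophages and hepatocytes, had 443 and 556 CPM in young liver against 2037 and 1557 CPM in old liver. Its log2 fold change was 1.84 (SE 0.23, limma adjusted p = 0.213), with adjusted p-values of 0.0612 in the exact test and 2.97e-05 in DESeq2. FASN, the fatty acid synthase, was at 1.15 and 0.774 CPM and then at 4.16 and 8.81 CPM (log2 fold change 1.86 ± 0.39 SE, limma adjusted p = 0.241). NR0B2, a repressor of bile acid synthesis that also answers to the bile acid receptor, was at 9.92 and 4.56 CPM and then at 68.7 and 37.3 CPM (log2 fold change 2.73 ± 0.52 SE, limma adjusted p = 0.230). SMPDL3A, a phosphodiesterase induced by LXRs in macrophages, went the other way, with 12.9 and 10.6 CPM and then 1.3 and 2.07 CPM (log2 fold change -2.25 ± 0.22 SE, limma adjusted p = 0.213). FASN (adjusted p = 0.0131), NR0B2 (0.00336) and SMPDL3A (0.0149) were the 3 genes of the list that the exact test called, against 2.36% of all mRNAs, and DESeq2 called 4 higher and 1 lower in old liver, against 4.04% and 1.17%.

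Partners of reverse cholesterol transport had a row in 15 of 16 cases, with 2 higher and 2 lower in both old livers (24.4% and 25% of all mRNAs), 0 called and a median log2 fold change of 0.03. SOAT2, which esterifies cholesterol for storage and secretion, had 7.21 and 6.94 CPM in young liver against 2.54 and 3.26 CPM in old liver (log2 fold change -1.06 ± 0.15 SE, limma adjusted p = 0.213). LCAT, which esterifies cholesterol in plasma lipoproteins, was at 126 and 135 CPM and then at 88.0 and 99.4 CPM. APOA1, the acceptor of ABCA1, had 1064 and 1156 CPM in young liver against 1898 and 894 CPM in old liver, on either side of them.

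A list around SREBF1 held lipogenic genes that its product switches on, together with its relative SREBF2 and genes that process or retain both proteins (MBTPS1, MBTPS2, SCAP, INSIG1 and INSIG2), so its count is not a reading of SREBF1. Of 19 listed genes 14 had a row, with 4 higher (among them SREBF2 and MBTPS1) and 1 lower in both old livers (24.4% and 25% of all mRNAs), 0 called and a median log2 fold change of 0.22. Besides FASN, which is also in the list of LXR targets, SREBF2, the sterol-sensing relative of SREBF1, had 1.37 and 1.35 CPM in young liver against 2.81 and 4.30 CPM in old liver (log2 fold change 0.93 ± 0.21 SE, limma adjusted p = 0.251). MBTPS1, which cuts both proteins, was at 4.81 and 4.62 CPM and then at 5.69 and 7.71 CPM. GPAM, which starts glycerolipid synthesis, was at 14.7 and 18.3 CPM and then at 6.83 and 9.38 CPM (log2 fold change -0.95 ± 0.22 SE, limma adjusted p = 0.255). In the list of phospholipid remodelling, 9 of 12 genes had a row, with 2 higher and 2 lower in both old livers (24.4% and 25% of all mRNAs), 0 called and a median of 0.12. PCYT1A, the rate-setting enzyme of phosphatidylcholine synthesis, was at 4.19 and 4.68 CPM and then at 2.88 and 3.36 CPM.

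**Figure D4:**
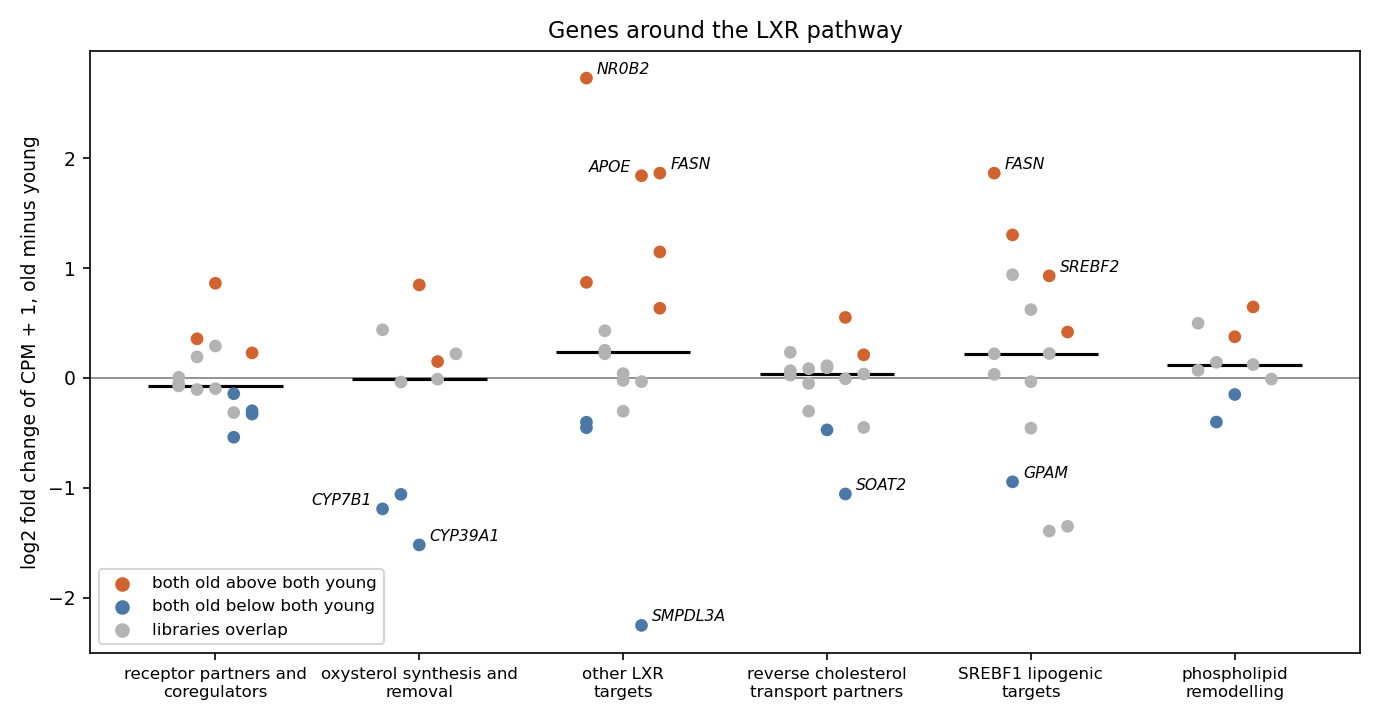
Log2 fold change of CPM + 1, old minus young, for the genes of 6 lists around the LXR pathway. Each point is a gene, orange where both old livers lie above both young ones, blue where both lie below and grey where they overlap, and black lines are list medians. NR0B2, FASN and APOE lie highest and SMPDL3A lowest, and all list medians lie between -0.07 and 0.24.

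The small RNA libraries of the same livers held miRNAs that are known to act on ABCA1 or NR1H3. Their deposited values are a scaled signal. Over all listed miRNAs it summed to 1.89e+07 and 1.12e+07 in young replicates 1 and 2. In old replicates 1 and 2 the sums were 1.50e+07 and 1.53e+07, so these libraries were not scaled to a common total either. limma called 0% of the 867 miRNAs tested, with 11.9% at an unadjusted p-value under 0.05. The signal of ssc-miR-206, which represses NR1H3, was 4.0 and 3.85 (3 and 4 reads) in the young and 79.6 and 295 (70 and 248 reads) in the old livers (log2 fold change 4.97 ± 0.75 SE, limma adjusted p = 0.0980), a fold that rests on the 3 and 4 reads of the young livers. The exact test of edgeR, which called 3.69% of miRNAs, gave it an adjusted p-value of 7.93e-07, whereas the quasi-likelihood test called 0% of miRNAs and gave it 0.124. miR-206 was higher in both old livers, as were 28.3% of the miRNAs tested, while both old values of NR1H3 lay between the young ones.

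The other listed miRNAs rested on few reads or overlapped. ssc-miR-144, which targets ABCA1, had a signal of 192 and 88.5 in the young and of 163 and 472 in the old livers, and its other arm miR-144-5p had 100 and 38.5 and then 201 and 55.9. miR-33a-5p and miR-33b-5p, which lie within introns of SREBF2 and SREBF1 and target ABCA1, had between 4 and 33 reads per library, with signals of 17.3 and 11.5 against 4.55 and 30.9 for miR-33a-5p and of 44.0 and 19.2 against 17.1 and 38.1 for miR-33b-5p. miR-33b-3p had 9 and 3 reads in the young livers and was at 0 in both old ones, and miR-33a-3p had between 1 and 4 reads in every library.

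Because LXR targets are also active in macrophages, marker genes of the cell types of liver were summed in each library. Of 17 markers of Kupffer cells and macrophages 10 had a row, and 5 were higher and 2 lower in both old livers, where 24.4% and 25% of all mRNAs were. Their sum was 270 and 310 CPM in the young and 406 and 434 CPM in the old livers, and without C1QA, the gene with the highest level, it was 88.9 and 106 CPM against 151 and 193 CPM. Their median on log2(CPM + 1) overlapped between the ages, at 3.13 and 3.47 against 3.44 and 3.55. None was at 0 in all libraries. MARCO, a scavenger receptor of Kupffer cells, had 1.58 and 1.34 CPM against 2.28 and 8.62 CPM, and CD14, a receptor for bacterial lipopolysaccharide, had 27.9 and 27.8 CPM against 49.7 and 91.1 CPM. CD68, C1QA and TYROBP were the other markers higher in both old livers. MSR1, another scavenger receptor, had 6.04 and 6.53 CPM against 4.68 and 4.16 CPM, and ITGAM, an integrin of myeloid cells, was also lower in both old livers. NR1H2, ABCG1 and APOE were higher in the old livers too, and the part of macrophages in them was not tested.

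In the other cell types, sums depended in part on single genes. Of 14 endothelial markers 8 had a row, 3 higher and 1 lower in both old livers (24.4% and 25% of all mRNAs). Their sum was 64.1 and 53.6 CPM in the young and 81.2 and 75.9 CPM in the old livers. Without LYVE1, which was at 36.5 CPM in old replicate 1 and at 8.90, 8.01 and 7.49 CPM in the other livers, the endothelial sums overlapped (55.2 and 45.6 against 44.7 and 68.4 CPM). The endothelial median on log2(CPM + 1) was lower in both old livers, at 3.34 and 3.22 against 2.31 and 3.13.

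Of 10 cholangiocyte markers 7 had a row, 4 higher and 0 lower in both old livers (24.4% and 25% of all mRNAs). Their sum was 72.2 and 61.3 CPM in the young and 144 and 120 CPM in the old livers. Most of that difference lay in CLDN4, a tight junction gene, at 12.4 and 15.0 CPM against 65.7 and 50.5 CPM, and the cholangiocyte medians overlapped (0.61 and 0.19 against 0.26 and 0.60 on log2(CPM + 1)). Of 5 erythroid markers with a row 2 were higher and 2 lower in both old livers (24.4% and 25% of all mRNAs), and 1 overlapped. Their median log2 fold change was 0.02. The erythroid sum (429 to 622 against 306 to 405 CPM) rested almost wholly on 1 gene and overlapped without it. Of 19 hepatocyte markers 15 had a row, with a median log2 fold change of -0.57. Sums overlapped between the ages for stellate cells and fibroblasts (47.8 to 77.9 against 51.3 to 122 CPM), lymphocytes (24.1 to 40.1 against 32.97 to 45.7 CPM), adipocytes (7.61 to 16.0 against 6.35 to 8.09 CPM) and skeletal muscle (1.94 to 2.53 against 1.33 to 6.71 CPM).

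The interferon-stimulated genes separated old replicate 1 from the rest. Of 34 listed genes 24 had a row, 6 were higher and 0 lower in both old livers (24.4% and 25% of all mRNAs). They summed to 2263 CPM in old replicate 1, against 111, 134 and 92.8 CPM in young replicates 1 and 2 and old replicate 2. NR1H2 and ABCG1 did not follow this split, since both old livers had nearly the same level of each, and without old replicate 1 their log2 fold changes were 1.55 and 0.55.

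**Figure D5:**
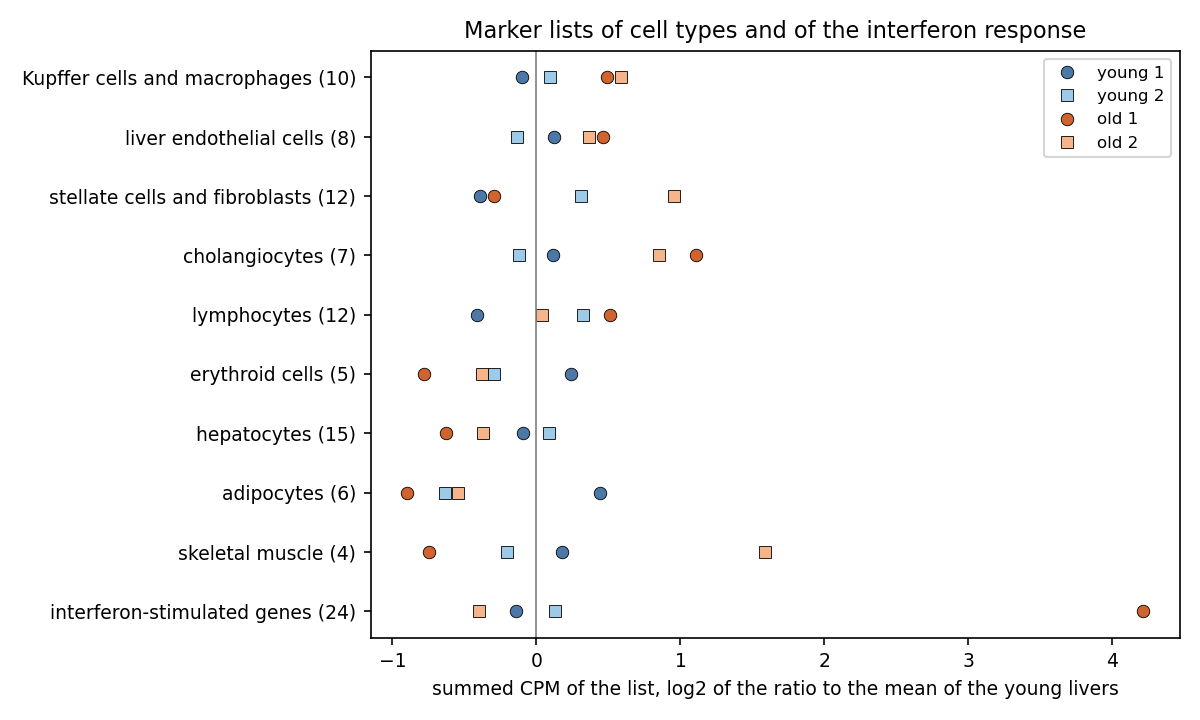
Summed CPM of each marker list in each library, as log2 of its ratio to the mean of the 2 young livers, with the number of genes with a row in brackets. The sums of macrophage, endothelial and cholangiocyte markers lie higher in both old livers and those of hepatocyte and erythroid markers lie lower. The erythroid sum rests almost wholly on 1 gene, and the endothelial sums overlap between the ages without LYVE1. Interferon-stimulated genes stand out in old replicate 1 alone.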

How the data were processed

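RNA-seq and small RNA-seq of 4 livers were used. The authors mapped filtered reads onto Sscrofa10.2 (TopHat2 2.0.14), assembled transcripts with StringTie 1.2.3 and deposited values named TPM, from Salmon 0.6.0 (versions from the submitters' processing notes). In each library 100% of the deposited mRNA values were whole multiples, within 0.1 read, of 1 step shared by all genes, so they were treated as CPM of a library total that is not stated, and whole reads were recovered. The miRNA values deposited by the authors, from mirdeep2, were a scaled signal with such steps, and all of their values came out whole too. Symbols were paired with 11654 of the identifiers. No lncRNA or circRNA was used.

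limma 3.58.1, edgeR 4.0.16 and DESeq2 1.42.0 (R 4.3.3) and Python 3.11.15 were used, with Benjamini-Hochberg adjustment over all features tested. limma was run on log2(value + 1). Count tests on recovered reads were alternatives. limma, the tagwise exact test, the quasi-likelihood test and DESeq2 were also run on simulated counts, with results not reported here. The genes and lists were chosen with earlier results of these data known. From each pathway list up to 4 genes were named, those with the smallest p-value among genes with a mean of at least 1 CPM whose age groups did not overlap, and for each receptor the 3 closest profiles. Some genes that this rule names are not reported here. Alternatives were the pseudocount, filter, scaling, variance model, test, replicate block and leaving out each library. The RNA and small RNA libraries of a liver share its sow, and each kind of library was tested on its own.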

Additional observations from a re-analysis of the deposited data

How the results depend on the processing

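limma called 0 mRNAs, and 2 mRNAs with a mean of at least 1 CPM required, the exact test of edgeR 399, the exact test with trended dispersions 534 and DESeq2 880, of which 86.5%, 85.6% and 77.6% in the last 3 tests were higher in old livers. Among the 8 LXR genes the trended exact test and DESeq2 called 1 each, NR1H2, against 3.16% and 5.21% of all mRNAs. The exact test called 32 miRNAs, and 26 with trended dispersions. The trended tests, the quasi-likelihood test of miRNAs and the separation with a library left out were chosen after seeing the data. The median over the 8 genes was 0.04 and moved to 0.22 (TMM), 0.15 (upper quartile), 0.28 (each edgeR test) and 0.26 (DESeq2), and to between 0.20 and 0.28 with 1 library left out. The median of all mRNAs was 0.14 higher in the exact test and 0.12 higher in DESeq2 than in limma. NR1H2, ABCG1, ABCG8 and MYLIP kept their direction under every alternative that could be fitted to them, and ABCG1 could not be fitted with a mean of at least 1. With 1 library left out, 5 to 7 of the 8 genes were separated by age, against 70.2% to 77.9% of all mRNAs. The change in the difference of NR1H2 and NR1H3 was then 1.33 to 1.79.

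Some directions turned, and the cause was not tested. ABCA1 turned to 0.13 (TMM), 0.065 (upper quartile), 0.17 (each edgeR test) and 0.15 (DESeq2). SCD turned to 0.010 (TMM), 0.28 (each edgeR test) and 0.25 (DESeq2). BCAS1 was at 0.27 and 0.014 with pseudocounts of 0.1 and 0.5, 0.027 (TMM) and 0.012 (upper quartile), and PDE3A at 0.36 and 0.023 with these pseudocounts, 0.026 (TMM), 0.014 (upper quartile), 0.0037 (exact), 0.0025 (trended exact) and 0.0050 (quasi-likelihood). miR-33a-5p turned to 0.12 in each edgeR test. With 1 library left out, values ranged from -0.24 to 0.29 for NR1H3, -0.31 to 0.22 for ABCA1, -0.35 to 0.47 for LPCAT3, -1.26 to 0.93 for SCD, -0.22 to 0.34 for CYB561, -0.31 to 0.29 for BCAS1, -0.30 to 0.29 for PDE3A, -0.76 to 0.39 for miR-33b-5p, -1.45 to 1.07 for miR-33a-5p and -0.15 to 1.68 for miR-144-5p. The lone library of an age was then assumed to vary like the other pair.

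Replicate numbers are shared by the ages but mark different sows. Deviations of equally numbered libraries correlated with r = 0.09 over 16898 mRNAs and r = -0.02 over 867 miRNAs. With 2 libraries per age this is a description only and does not decide whether the numbers pair libraries. With the replicate number as a block, 0 mRNAs and 0 of the 8 genes were called, and the adjusted p-value of NR1H2 was 0.344. Depth limits ABCG1 and MYLIP, with 9 to 92 reads per library, and the miR-33 arms.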

Other observations

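In the RefSeq gene order of Sscrofa11.1, NR1H2 lies between NAPSA and POLD1. NAPSA, the gene of an aspartic protease, had 0.261 CPM in young replicate 1, was listed at 0 in young replicate 2, and had 1.25 and 0.320 CPM in old replicates 1 and 2. POLD1, the catalytic subunit of DNA polymerase delta, had 0.218 and 0.104 CPM in young liver against 0.211 and 0.501 CPM in old liver. NAPSA was thus also separated by age at a low and uneven level, whereas POLD1 overlapped.

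Some genes of the lists were left out by the naming rule and are given here after their values were seen. TGM2, a transglutaminase, had 1.64 and 1.40 CPM in young liver against 6.27 and 3.27 CPM in old liver. NPC1, which releases cholesterol from lysosomes, had 0.479 and 0.566 CPM against 1.35 and 1.11 CPM. Both old livers were above both young ones for both of these genes, and the adjusted p-values of limma were 0.280 for TGM2 and 0.251 for NPC1. TTC39B and LBP, listed LXR targets that the rule also left out, were lower in both old livers. TTC39B had 1.68 and 1.18 CPM in young liver against 0.585 and 0.961 CPM in old liver. LBP had 222 and 228 CPM against 216 and 134 CPM.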
